A study of Mus musculus with 6 samples.

Results

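Class V myosins are actin motors that carry vesicles, and Rab27 GTPases together with adaptor proteins tie such vesicles to the motors. The group described here was taken by gene symbol from a table of read counts in inguinal white fat of the mouse, a subcutaneous depot. It comprises the motors Myo5a, Myo5b and Myo5c, the GTPases Rab27a and Rab27b, and the adaptors Mlph and Rab11fip2. These are 7 of the 52550 genes in the table, and all 7 passed the filter on low counts. They were picked around the rise of Myo5c in fat given Hnrnpa2b1, so the values of Myo5c are a description and carry no test. The other 6 were picked by family and function.

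Each myosin V molecule walks along actin with a pair of motor heads and grips its cargo with a globular tail. In mouse melanocytes Rab27a sits on the melanosome, melanophilin (Mlph) binds Rab27a, and Myo5a binds melanophilin; loss of any 1 of the 3 dilutes the coat colour, in the mutants ashen, leaden and dilute. Myo5b acts with Rab11 and Rab11fip2 on recycling endosomes, and Myo5c is known mainly from glandular epithelium, where it travels with secretory vesicles. In cultured adipocytes Myo5a has been tied to the insulin-driven movement of vesicles that hold the glucose transporter GLUT4.

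The study delivered a gene to the fat of C57BL/6 mice with adeno-associated virus (AAV). In the A2B1 group the inguinal fat was injected with AAV that holds the mouse Hnrnpa2b1 coding sequence; its product binds RNA and belongs to the hnRNPs. In the control group it received AAV with a scrambled control, which the series' design text calls AAV GFP. Each group held 3 libraries, numbered here within the group only as names. Age, sex, the promoter of the vector and whether a library is 1 animal are not given in the labels. The p-values therefore set the group difference only against the spread of these libraries within groups, part of which may be technical.

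Total counts per library lay between 72961324 and 86663359. Hnrnpa2b1 itself had 766 ± 20.6 CPM (read counts scaled to a common library size) in A2B1 libraries and 562 ± 40.1 CPM in controls (SD over 3 each). The groups did not overlap (log2 fold change 0.45, SE 0.09 and edgeR adjusted p = 0.0654, DESeq2 adjusted p = 0.00244). The sample source is labelled as adipocytes, and the 9 mature adipocyte markers examined summed to 37100 to 39000 CPM in A2B1 libraries and 36600 to 38900 CPM in controls. The tissue also held other cells, since 12 leukocyte markers summed to 210 to 433 CPM in A2B1 libraries and 459 to 1030 CPM in controls. A2B1 library 1 lay farthest out on the first principal component (52.8% of the variance), at -107.6, against 18.1 and -50.6 for the other A2B1 libraries and 26.4 to 69.6 for the controls. Log2 fold changes of Myo5c, Myo5b, Rab27a and Krt8 and medians of the epithelium and thermogenic lists are given with and without it.

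Myo5a and Myo5c are neighbours on chromosome 9 of the mm10 assembly and run in the same direction. Myo5a (ENSMUSG00000034593) spans 75071015 to 75223688 and Myo5c (ENSMUSG00000033590) 75232020 to 75305451, both on the plus strand, with a gap of 8331 bases between them. Rab27a (ENSMUSG00000032202) lies on the same chromosome and strand at 73044854 to 73097629, 1.97 Mb before Myo5a. Mlph (ENSMUSG00000026303) is on chromosome 1 (90915085 to 90951142, plus strand) and Rab11fip2 (ENSMUSG00000040022) on chromosome 19 (59902884 to 59943654, minus strand). The exons of Rab27a share 149 bases with the model Gm27186 on the same strand, which had 3 counts in all libraries together. GENCODE M21 places no other gene's exons over those of the other 6 members.

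The promoters of the 3 genes on chromosome 9 are shown because Myo5c counts were higher and those of the others lower in A2B1 libraries. Each window holds the 250 bases before and the 50 bases after an annotated start, 5′ to 3′ on the plus strand, from RefSeq on GRCm38.p6, the assembly of mm10. Capitals mark exact matches, on either strand, to a nuclear receptor half-site (AGGTCA), the CCAAT box, an E-box (CACGTG), a cAMP response element (TGACGTCA) or a GC box (GGGCGG).
Myo5c, chr9:75231764-75232063: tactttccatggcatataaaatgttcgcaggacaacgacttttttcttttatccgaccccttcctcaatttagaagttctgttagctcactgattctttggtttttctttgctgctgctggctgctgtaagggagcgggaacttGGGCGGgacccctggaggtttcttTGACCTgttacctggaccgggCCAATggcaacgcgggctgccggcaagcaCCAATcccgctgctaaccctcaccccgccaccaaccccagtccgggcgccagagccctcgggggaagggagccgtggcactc
Myo5a, chr9:75070956-75071255: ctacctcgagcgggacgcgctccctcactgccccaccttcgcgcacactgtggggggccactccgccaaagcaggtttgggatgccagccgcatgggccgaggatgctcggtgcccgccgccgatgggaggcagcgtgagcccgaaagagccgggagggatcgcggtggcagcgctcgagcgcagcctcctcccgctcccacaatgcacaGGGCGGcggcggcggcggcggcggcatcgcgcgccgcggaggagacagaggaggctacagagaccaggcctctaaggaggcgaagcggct
Rab27a, first of its start sites, chr9:73044560-73044859: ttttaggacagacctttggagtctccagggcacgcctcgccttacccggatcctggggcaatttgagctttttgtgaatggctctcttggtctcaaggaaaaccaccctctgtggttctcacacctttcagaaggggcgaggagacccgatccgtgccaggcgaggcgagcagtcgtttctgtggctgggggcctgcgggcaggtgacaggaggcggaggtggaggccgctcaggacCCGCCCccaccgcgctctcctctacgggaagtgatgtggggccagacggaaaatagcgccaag

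The Myo5c window held 1 half-site match 82 bases before the start, 2 CCAAT boxes at 61 and 32 bases before it and 1 GC box at 106 bases before it. Half-site matches occurred in 16.3% of 32851 promoter windows of this length, CCAAT in 37.4% and GC boxes in 35.7%. The Myo5a window and that of the first Rab27a start each held 1 GC box and none of the other 4 motifs; the window of the second Rab27a start held 2 CCAAT boxes and 1 E-box. The Myo5a window was richer in G and C, at 72.0%, than those of the Rab27a starts at 61.3% and 51.3% and that of Myo5c at 56.3%, beside a median of 52.7% over all windows. The E-box, which 7.15% of windows hold, had 1 match in the Mlph window too. The cAMP response element, held by 1.79% of windows, had 0 in the member windows searched. Promoter windows were used for 5 of the 7 members, and those of Myo5b and Rab27b, both on chromosome 18, were not searched.

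Myo5c had 607, 563 and 576 counts in the A2B1 libraries, against 185, 227 and 251 counts in the controls. After scaling this was 8.79, 7.08 and 7.74 CPM in A2B1 libraries and 2.45, 2.55 and 3.0 CPM in controls. All 3 A2B1 libraries stood well above all 3 controls, and the A2B1 libraries lay close together. A2B1 over control the fit gave a ratio of 2.95 with a 95% interval of 2.23 to 3.91, or 1.56 on the log2 scale (SE 0.17), and it is this value, past the adjusted threshold of 0.05 in edgeR, that chose the group. The interval and the call take no account of that choice. Without A2B1 library 1 the log2 fold change of Myo5c was 1.49. Over all fits that left out 1 library it lay between 1.49 and 1.65, though with 5 libraries it no longer passed the threshold. In bulk tissue such as this, fewer cells of a type and less RNA per cell cannot be told apart.

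Myo5a, the most abundant class V myosin of this fat, had 37.1, 43.3 and 37.9 CPM in A2B1 libraries and 55.9, 64.0 and 76.1 CPM in controls. The groups did not overlap, and here the A2B1 libraries were the lower ones, opposite to Myo5c. The fit gave a ratio of 0.604 with a 95% interval of 0.485 to 0.752, or -0.73 on the log2 scale (SE 0.13). Its edgeR adjusted p of 0.0545 missed the threshold, which 1.82% of all 19146 tested genes passed (0.496% higher, 1.33% lower). DESeq2, which called 12.5% of its genes, gave Myo5a an adjusted p of 0.000611, and limma-voom, which called 2.44%, gave 0.0409.

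Myo5b (ENSMUSG00000025885, mm10 chromosome 18, 74440936 to 74771493, plus strand) had 3.34, 1.45 and 1.55 CPM in A2B1 libraries and 1.61, 1.22 and 1.35 CPM in controls. A2B1 library 1 alone stood apart, and the other 5 libraries overlapped. The log2 fold change was 0.60 (SE 0.38 and edgeR adjusted p = 0.368) with all libraries and 0.12 (adjusted p = 0.822) without A2B1 library 1.

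**Figure D1:**
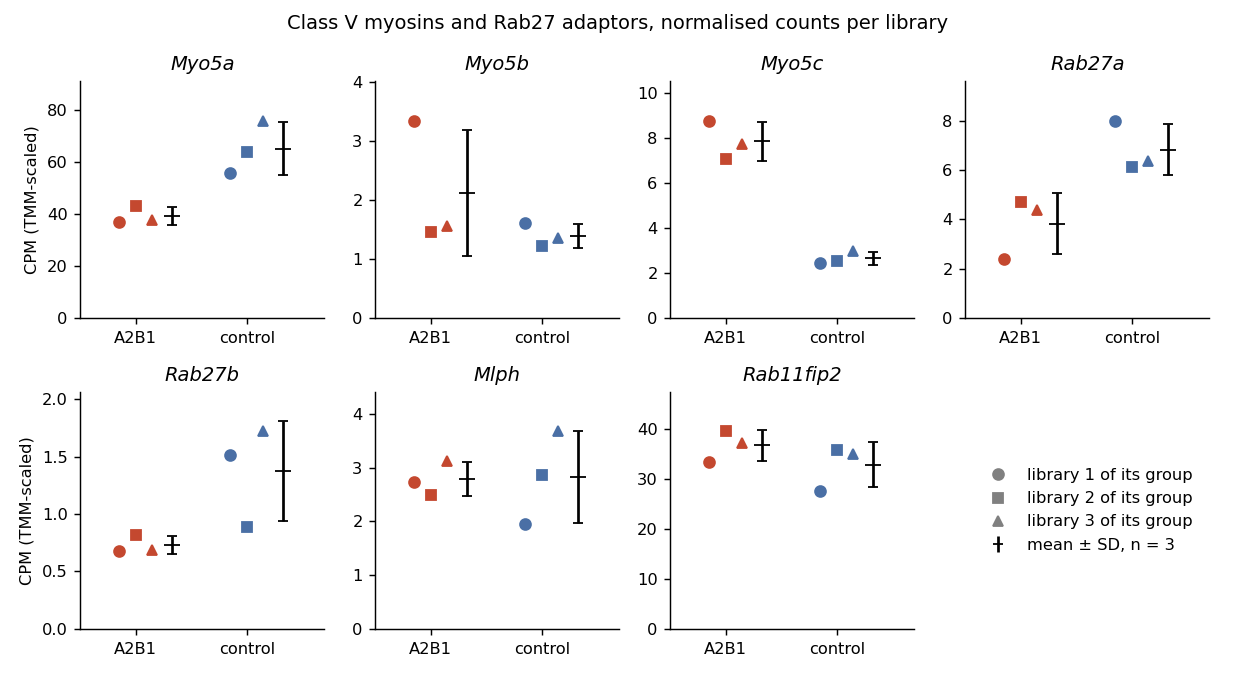
Normalised counts of the 7 genes in each library. The vertical axes give CPM scaled by TMM factors and start at 0, points are single libraries (the numbers do not pair libraries across groups), and bars beside them give the mean ± SD of 3. Myo5c lies higher and Myo5a, Rab27a and Rab27b lie lower in every A2B1 library than in any control, while Myo5b, Mlph and Rab11fip2 overlap.

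The make-up of the class V motors was compared per length, as each gene's share of the summed counts per kilobase of annotated exon. Myo5c made up 24.1%, 19.2% and 22.7% of class V counts per kilobase in the A2B1 libraries, against 6.03%, 5.57% and 5.54% in controls. Myo5a made up 66.7%, 76.9% and 72.8% in A2B1 libraries, against 90.0%, 91.8% and 92.0% in controls. Both shares were separate between the groups. Put as raw counts, there were 4.22, 6.12 and 4.89 Myo5a counts for each Myo5c count in A2B1 libraries and 22.8, 25.1 and 25.4 in controls. Myo5b's share was 5.84% ± 2.86 in A2B1 libraries and 3.02% ± 0.787 in controls (SD, n = 3 each), and its highest value, 9.12%, was again in A2B1 library 1. The 3 motors together reached 3.75, 3.81 and 3.52 CPM per kilobase in A2B1 libraries and 4.19, 4.71 and 5.59 in controls, so the summed level of class V transcripts was lower in A2B1 libraries even though Myo5c was higher. With the longest coding transcript as length the Myo5c share was 24.1% ± 2.64 in A2B1 libraries and 6.43% ± 0.303 in controls (SD, n = 3 each). These shares contain the values that chose the group and are given as a description.

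**Figure D2:**
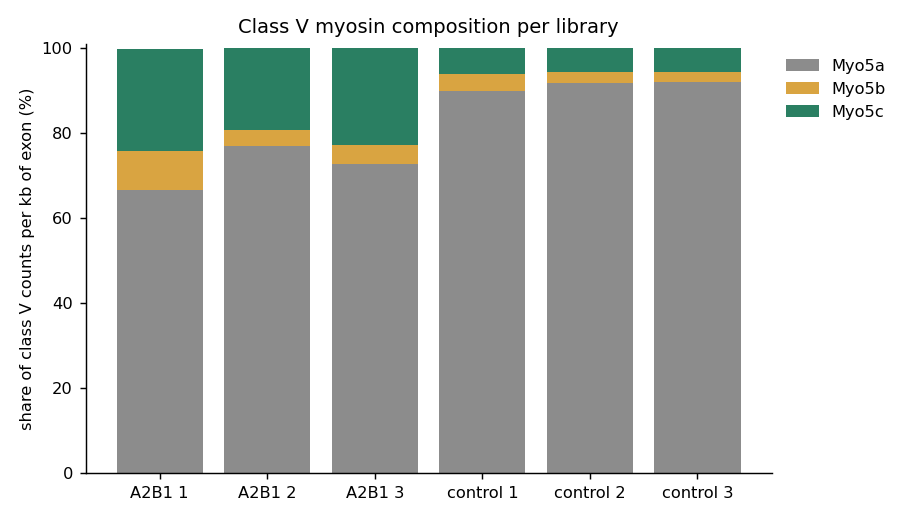
Share of Myo5a, Myo5b and Myo5c in the class V myosin counts per kilobase of exon, in percent, for each library, A2B1 libraries first. Myo5c takes 19.2% to 24.1% in A2B1 libraries and 5.54% to 6.03% in controls, and the Myo5a share is correspondingly smaller.

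Rab27a, the GTPase of melanosomes and of the lytic granules of T cells, had 166, 373 and 325 counts in A2B1 libraries and 603, 545 and 532 in controls. In CPM this was 2.40, 4.69 and 4.37 in A2B1 libraries and 8.0, 6.12 and 6.35 in controls. The groups did not overlap, with the lowest value in A2B1 library 1 and the highest in control library 1. The log2 fold change was -0.84 (SE 0.28, ratio 0.56 with a 95% interval of 0.349 to 0.90) and did not pass in edgeR (adjusted p = 0.162) or limma-voom (0.14); DESeq2 gave 0.0383. Without A2B1 library 1 it was -0.57 (adjusted p = 0.238).

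Rab27b, which shares effectors with Rab27a and acts in platelets and exocrine glands, was the scarcest member (ENSMUSG00000024511, mm10 chromosome 18, 69979131 to 70141605, minus strand). It had 47, 65 and 51 counts in A2B1 libraries against 114, 79 and 144 in controls, or 0.68, 0.817 and 0.686 CPM against 1.51, 0.886 and 1.72 CPM. The groups did not overlap, although A2B1 library 2 and control library 2 nearly met. The log2 fold change of -0.91 (SE 0.31, ratio 0.531, 95% interval 0.317 to 0.891) did not pass (edgeR adjusted p = 0.162, DESeq2 0.0971, limma-voom 0.275). Rab27a made up 93.1% ± 2.13 of Rab27 counts per kilobase in A2B1 libraries and 93.2% ± 2.0 in controls (SD, n = 3 each), so the 2 paralogs kept about the same proportion while their summed level was 1.05 ± 0.324 CPM per kilobase in A2B1 libraries and 1.89 ± 0.283 in controls (SD, n = 3 each).

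Mlph, the link between Rab27a and Myo5a, had 2.74, 2.50 and 3.13 CPM in A2B1 libraries and 1.96, 2.86 and 3.68 CPM in controls. The A2B1 values lay inside the range of the controls. The log2 fold change was -0.02 (SE 0.27), with a 95% interval of the ratio of 0.626 to 1.55 (edgeR adjusted p = 0.969), so a change of about that size in either direction was not detectable with these libraries. Rab11fip2, which joins Rab11 to Myo5b, had 33.4, 39.6 and 37.3 CPM in A2B1 libraries and 27.7, 35.9 and 35.0 CPM in controls. These groups overlapped too, with a ratio of 1.12 (95% interval 0.906 to 1.38, edgeR adjusted p = 0.469).

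Among the 6 members other than Myo5c, 0 passed an adjusted p of 0.05 in edgeR, and 3 had an unadjusted p under 0.05, as had 24.2% of all tested genes. DESeq2 called 2 of the 6, Myo5a and Rab27a, and limma-voom called Myo5a. Of the 6, 3 had groups that did not overlap, all 3 lower in A2B1 libraries, beside 15.5% of all tested genes lower in this way, 15.1% higher and 30.6% in either direction. In other edgeR fits the share of all genes called was 1.75% with the size factors of DESeq2, 1.57% with library totals alone and 1.78% with upper-quartile factors. It was 0.938% with no filter and 3.33% with a filter of 1 CPM in 3 libraries. Of the 6, Myo5a alone was called in any of these fits, in the last. Without A2B1 library 1, 2 or 3 the share was 0.0557%, 0.0658% or 0.0507%, and without control library 1, 2 or 3 it was 0.29%, 0.0969% or 0.202%, with 0 members called. The members were chosen with results of these libraries known, so these counts are a description.

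**Figure D3:**
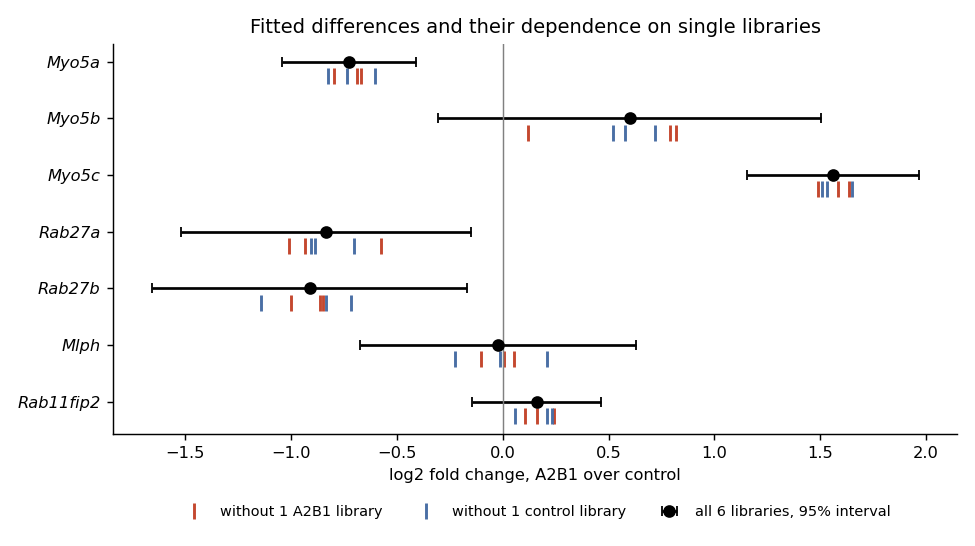
Fitted log2 fold change of each gene, A2B1 over control, with its 95% interval (black) and the values when 1 library is left out (coloured ticks, red without an A2B1 library, blue without a control). Myo5c and Myo5a stay on opposite sides of 0 in all 6 such fits, and the tick of Myo5b nearest 0, at 0.12, is the fit without A2B1 library 1.

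The order of the levels, in CPM per kilobase of exon, also differed in 1 place. In A2B1 libraries Rab11fip2 was highest at 6.04 ± 0.521, followed by Myo5a at 2.66 ± 0.23, Rab27a at 0.985 ± 0.319, Myo5c at 0.812 ± 0.0888, Mlph at 0.521 ± 0.0594, Myo5b at 0.216 ± 0.109 and Rab27b at 0.0682 ± 0.00727 (SD, n = 3). In controls the order was Rab11fip2 at 5.4 ± 0.74, Myo5a at 4.41 ± 0.685, Rab27a at 1.76 ± 0.265, Mlph at 0.529 ± 0.16, Myo5c at 0.275 ± 0.03, Myo5b at 0.143 ± 0.02 and Rab27b at 0.129 ± 0.0406 (SD, n = 3). Myo5c thus stood above Mlph in A2B1 libraries and below it in controls, with no overlap between these genes in either group. Rab27a and Myo5c overlapped in A2B1 libraries, and Rab11fip2 with Myo5a and Myo5b with Rab27b overlapped in controls.

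Genes around Myo5c were examined, since position played no part in the choice of members. Of 29 annotated genes lying within 500 kb of it, 16 were tested and 0 passed in edgeR, Myo5a included. Of the 16, 4 had an unadjusted p under 0.05, beside 24.2% of all tested genes. DESeq2 and limma-voom each called Myo5a alone. Gnb5, a G protein beta subunit gene that begins 836 bases past the end of Myo5c, had a log2 fold change of 0.27 (SE 0.14 and edgeR adjusted p = 0.285). Its exons share 248 bases with Gm19531 on the other strand, which had 759 counts in all libraries against 21396 for Gnb5. This leaves part of the Gnb5 count uncertain. The 16 neighbours had a median log2 fold change of 0.03 and ranged between -0.73, which is Myo5a, and 0.94, which is the noncoding gene 4933433G15Rik (SE 0.29 and adjusted p = 0.138). Of them, 5 had non-overlapping groups, beside 30.6% of all tested genes. Around Rab27a, 13 of 35 annotated genes were tested, with a median log2 fold change of 0.32, and 0 passed in edgeR. There, 3 had an unadjusted p under 0.05, DESeq2 called Pygo1 and limma-voom called 0. The nearest tested genes with a name of their own were Pigb upstream, a mannosyltransferase of GPI anchors, at 0.23 (SE 0.40 and adjusted p = 0.763), and Rsl24d1 downstream, a ribosome assembly factor, at 0.31 (SE 0.14 and adjusted p = 0.251). The exons of Pigb overlap Ccpg1 on the other strand, which leaves its count uncertain.

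**Figure D4:**
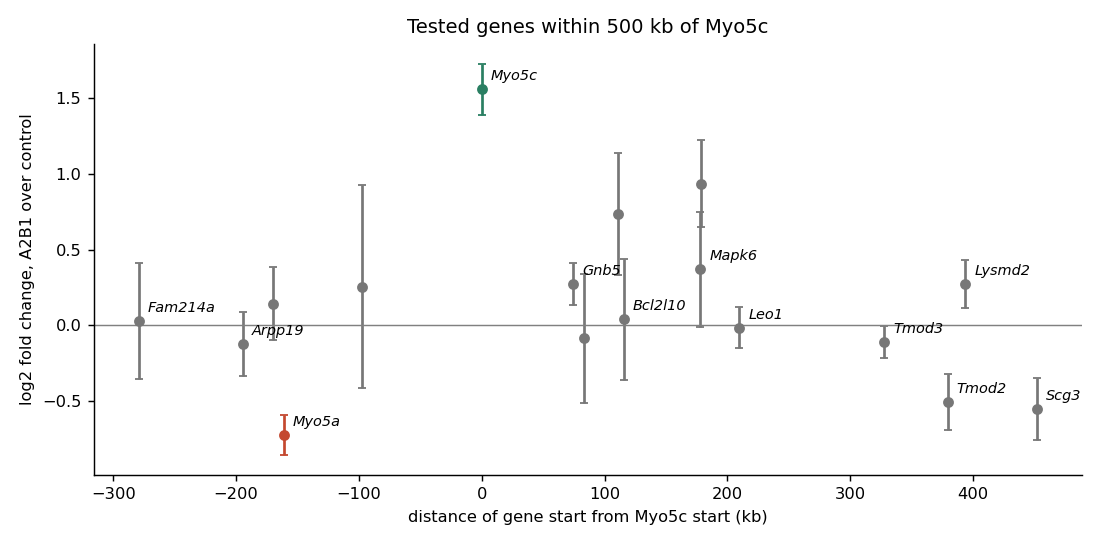
Log2 fold change, A2B1 over control, with its SE, of the tested genes within 500 kb of Myo5c, against the distance of each gene's start from the Myo5c start in kilobases. Myo5c (green) lies at 1.56 and Myo5a (red), the gene before it, at -0.73; the other neighbours lie between -0.56 and 0.94.

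The wider machinery was followed through gene lists. Counts in these lists and in the marker lists further below are to be read beside the shares over all genes. In edgeR 24.2% of all tested genes had an unadjusted p under 0.05 and 1.82% passed. DESeq2 called 12.5% of its genes and limma-voom 2.44%. Among 8 tested Rab27 effectors, proteins that bind Rab27 in its active form, 0 passed in edgeR or limma-voom and 2 had an unadjusted p under 0.05; the median log2 fold change was -0.56, beside 0.00 over all tested genes. Myrip, which links Rab27a to Myo7a and Myo5a, had 5.47, 6.70 and 5.27 CPM in A2B1 libraries and 8.36, 11.6 and 17.7 CPM in controls (log2 fold change -1.11, SE 0.28 and edgeR adjusted p = 0.101), and DESeq2 called it. Sytl2, a synaptotagmin-like effector of Rab27, had a log2 fold change of -0.56 (SE 0.23 and adjusted p = 0.196). Sytl5 had 0 counts in every library.

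Of 8 factors that load, switch off or prenylate Rab27, 1 rose and 0 fell (median 0.07). Chml, a Rab escort protein that presents new Rabs for prenylation, had 30.4, 31.0 and 30.8 CPM in A2B1 libraries and 23.7, 22.9 and 22.4 CPM in controls, a log2 fold change of 0.42 (SE 0.07 and edgeR adjusted p = 0.0497). The groups were clearly apart, but the call was lost in 4 of 7 other settings, with adjusted p-values up to 0.111, and 461 bases of its exons overlap Opn3 on the same strand, which leaves its count uncertain. Its paralog Chm had 27.8, 31.0 and 29.4 CPM in A2B1 libraries and 27.1, 25.8 and 26.3 CPM in controls (edgeR adjusted p = 0.274).

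In the list of Myosin V partners and Rab11 adaptors 0 of 21 tested genes passed in edgeR or limma-voom (median -0.14). Of the 21, 8 had an unadjusted p under 0.05, beside 24.2% of all tested genes. DESeq2 called 3, all lower, beside 12.5% of all its genes. Rab11fip4, an adaptor of Rab11 like Rab11fip2, had 8.59, 11.1 and 12.5 CPM in A2B1 libraries and 18.6, 18.3 and 25.4 CPM in controls (log2 fold change -0.95, SE 0.20 and edgeR adjusted p = 0.069). Rab3d, a secretory vesicle Rab, had a log2 fold change of -0.35 (SE 0.08 and adjusted p = 0.0929). In the GLUT4 traffic list 0 of 17 passed in edgeR, DESeq2 or limma-voom, and 5 had an unadjusted p under 0.05 (median -0.02). Rab14 there had a log2 fold change of 0.23 (SE 0.07 and edgeR adjusted p = 0.132) and Tbc1d4, the Akt substrate that restrains GLUT4 vesicles, 0.29 (SE 0.10 and adjusted p = 0.167). Of the 9 exocyst genes, whose complex tethers vesicles to the plasma membrane, 0 passed in edgeR or limma-voom, 3 had an unadjusted p under 0.05 and DESeq2 called 2 (median -0.09). Exoc4 had a log2 fold change of -0.35 (SE 0.08 and edgeR adjusted p = 0.0775) and Exoc6 -0.39 (SE 0.10 and adjusted p = 0.0966).

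Of 22 other myosin heavy chains tested, 0 rose and 1 fell in edgeR; 7 log2 fold changes were positive and 15 negative. Of the 22, 10 had an unadjusted p under 0.05, beside 24.2% of all tested genes. DESeq2 called 6, all lower, beside 12.5% of all its genes. The median log2 fold change of the 22 was -0.41. The member that fell was Myo1d, a membrane-binding class I myosin, with 22.3, 17.6 and 21.3 CPM in A2B1 libraries and 40.7, 43.5 and 37.0 CPM in controls (log2 fold change -0.99, SE 0.12 and edgeR adjusted p = 0.0253). Its groups were far apart, and it was called in all 7 other settings and in 0 of the 6 fits without 1 library. Myo1f and Myo1g, class I myosins of blood cells, had log2 fold changes of -1.22 (SE 0.40 and adjusted p = 0.157) and -1.65 (SE 0.55 and adjusted p = 0.166). The highest of the 22 was Myo1a at 0.69 (SE 0.33 and adjusted p = 0.253) with under 0.4 CPM in every library. Myo5c, at 1.56, was chosen for its rise, so its place above these genes is a description.

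Markers of other cells that use these proteins were measured beside them. Epithelial markers were low but uneven. The 20 mammary and skin epithelium markers summed to 70.1, 11.8 and 19.7 CPM in A2B1 libraries and 7.40, 8.43 and 6.88 CPM in controls. A2B1 library 1, which also had the highest Myo5b, stood far above the rest. Of the 20, 11 were tested, 10 had positive log2 fold changes (median 1.01, and 0.80 without A2B1 library 1), 4 had an unadjusted p under 0.05, 0 passed in edgeR or limma-voom, and DESeq2 called 4. Krt8, a keratin of simple epithelium, had 18.3, 0.579 and 4.02 CPM in A2B1 libraries and 0.451, 0.348 and 0.502 CPM in controls (log2 fold change 4.13, SE 1.23 and edgeR adjusted p = 0.143). Without A2B1 library 1 its log2 fold change was 2.42 (adjusted p = 0.227). Trp63, a transcription factor of basal epithelium, had 8.41, 7.76 and 5.38 CPM in A2B1 libraries and 3.53, 3.86 and 3.34 CPM in controls (log2 fold change 1.00, SE 0.21 and adjusted p = 0.069). The basal keratin Krt14 and the milk protein gene Csn3 had 0 counts in every library, and Epcam, which marks epithelial cells in general, had at most 0.376 CPM. Without A2B1 library 1 the log2 fold change of Myo5b was 0.12 and that of Myo5c 1.49. In the other A2B1 libraries the epithelial sums, 11.8 and 19.7 CPM, were above every control. Trp63 alone gave 7.76 of the 11.8 CPM in A2B1 library 2, so that sum rests mainly on 1 gene. The part of epithelium in the Myo5b and Myo5c values was not tested.

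Leukocyte markers were set beside Rab27a. All 12 had negative log2 fold changes (median -1.32). Groups did not overlap for 2 of them, beside 15.5% of all tested genes lower in this way. An unadjusted p under 0.05 was seen for 5, beside 24.2% of all tested genes. In edgeR or limma-voom 0 passed, and DESeq2 called 5, beside 12.5% of all its genes. Summed, the 12 markers reached 279, 433 and 210 CPM in A2B1 libraries and 1030, 565 and 459 CPM in controls. Control library 1 held the highest leukocyte sum and the highest Rab27a, and without it the median of the list was -0.74 and the log2 fold change of Rab27a -0.70 (adjusted p = 0.329). A2B1 library 2 was the highest of its group in both. The lowest sum was in A2B1 library 3, but the lowest Rab27a, 2.4 CPM, was in A2B1 library 1. Control library 2 had a higher sum than control library 3 but a lower Rab27a, 6.12 against 6.35 CPM. Csf1r, the receptor that sustains macrophages, had a log2 fold change of -0.94 (SE 0.23 and edgeR adjusted p = 0.0935) and Lyz2, the lysozyme of myeloid cells, -1.05 (SE 0.33 and adjusted p = 0.153). The exons of Csf1r overlap Hmgxb3 on the other strand, which leaves its count uncertain. Myo5a had 55.9, 64.0 and 76.1 CPM in the controls, lowest in control library 1, and its log2 fold change without that library was -0.82. The part of leukocytes in the values of Rab27a and Myo5a was not tested.

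Of the melanocyte markers, some pigment genes were at or near 0 and others were not. Mitf lay between 13.1 and 19.0 CPM over all libraries, Sox10 between 0.557 and 2.73 CPM and Pmel between 0.453 and 1.17 CPM. Slc45a2 and Oca2 had 0 counts in every library, Tyr had 7 counts in control library 1 and 0 elsewhere, and Dct, at 0.847 to 2.06 CPM in A2B1 libraries and 1.01 to 1.44 CPM in controls, was at most 2.06 CPM in any library. Of 14 markers 8 were tested, 0 passed in edgeR or limma-voom, 2 had an unadjusted p under 0.05 and DESeq2 called these 2 (median -0.30). They were Rab38 (log2 fold change -1.05, SE 0.23 and edgeR adjusted p = 0.0744) and Rab32 (-0.75, SE 0.17 and adjusted p = 0.0826), GTPases that serve lysosome-related organelles in other cells too.

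Mast cell and platelet markers summed to 40.7 to 72.8 CPM in A2B1 libraries and 60.8 to 103 CPM in controls (median log2 fold change -0.61); of 10, 0 passed in edgeR or limma-voom, 4 had an unadjusted p under 0.05, and DESeq2 called Kit. Kit, the stem cell factor receptor of mast cells and melanocytes, had a log2 fold change of -1.13 (SE 0.23 and edgeR adjusted p = 0.0677) and the platelet chemokine gene Ppbp 1.07 (SE 0.31 and adjusted p = 0.129). In the nerve and Schwann cell, skeletal muscle and endothelial lists 0 of 6, 0 of 3 and 0 of 6 tested genes passed in edgeR or limma-voom, with 1, 3 and 2 at an unadjusted p under 0.05; DESeq2 called 1, Snap25, in the first and 0 in both others. Snap25, a membrane fusion protein of nerve endings, had a log2 fold change of -2.02 (SE 0.68 and edgeR adjusted p = 0.159), which was -1.14 without control library 2, and Mbp, a myelin protein, -0.22 (SE 0.17 and adjusted p = 0.465). The muscle genes Tnnt3 and Acta1 had -5.17 (SE 1.88 and adjusted p = 0.181) and -2.02 (SE 0.76 and adjusted p = 0.187), and control library 3 held the highest muscle sum, 139 CPM, against 18.3 and 22.9 CPM in the other controls; without it Tnnt3 had -1.04. The endothelial genes Pecam1 and Cdh5 had -0.47 (SE 0.16 and adjusted p = 0.167) and -0.49 (SE 0.18 and adjusted p = 0.178).

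Markers of adipocytes themselves were also set beside the members. Of 9 mature adipocyte markers 0 rose and 1 fell in edgeR and in limma-voom (median 0.15), while DESeq2 called 1 higher, Plin1, and 1 lower, and 5 had an unadjusted p under 0.05 in edgeR. The one that fell was the lipid droplet gene Cidec at -0.62 (SE 0.11 and edgeR adjusted p = 0.0497); that call was lost in 3 of 7 other settings. Of 10 thermogenic markers 4 rose and 0 fell in edgeR (median 1.51, and 1.16 without A2B1 library 1); DESeq2 called 7 and limma-voom 4, all higher, the last with Ucp1 in place of Plin5. In log2 units Cidea rose by 2.16 (SE 0.24 and adjusted p = 0.0248), Cox8b by 1.86 (SE 0.22 and adjusted p = 0.0251) and Cpt1b by 1.33 (SE 0.23 and adjusted p = 0.0497); the fourth was Plin5. In the 7 other settings Cidea and Cox8b kept their call, while Cpt1b lost it in 2 and Plin5 in 4, and without 1 library Cidea was called in 1 of 6 fits and the other 3 in 0. Cpt1b shares exon bases with Gm44502, which makes its count uncertain. The thermogenic sum was 334, 233 and 278 CPM in A2B1 libraries and 126, 114 and 85.1 CPM in controls. Of this, Elovl3 gave 60.5, 0.34 and 5.79 CPM in A2B1 libraries. Ucp1 was scarce, at 3.59, 8.43 and 7.73 CPM in A2B1 libraries and 0.65, 0.168 and 0.0597 CPM in controls. Log2 fold changes were positive for 9 of the 10 and negative for Dio2, at -0.54 (SE 0.75 and edgeR adjusted p = 0.695). Any part of thermogenic adipocytes in the Myo5c value was not tested.

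**Figure D5:**
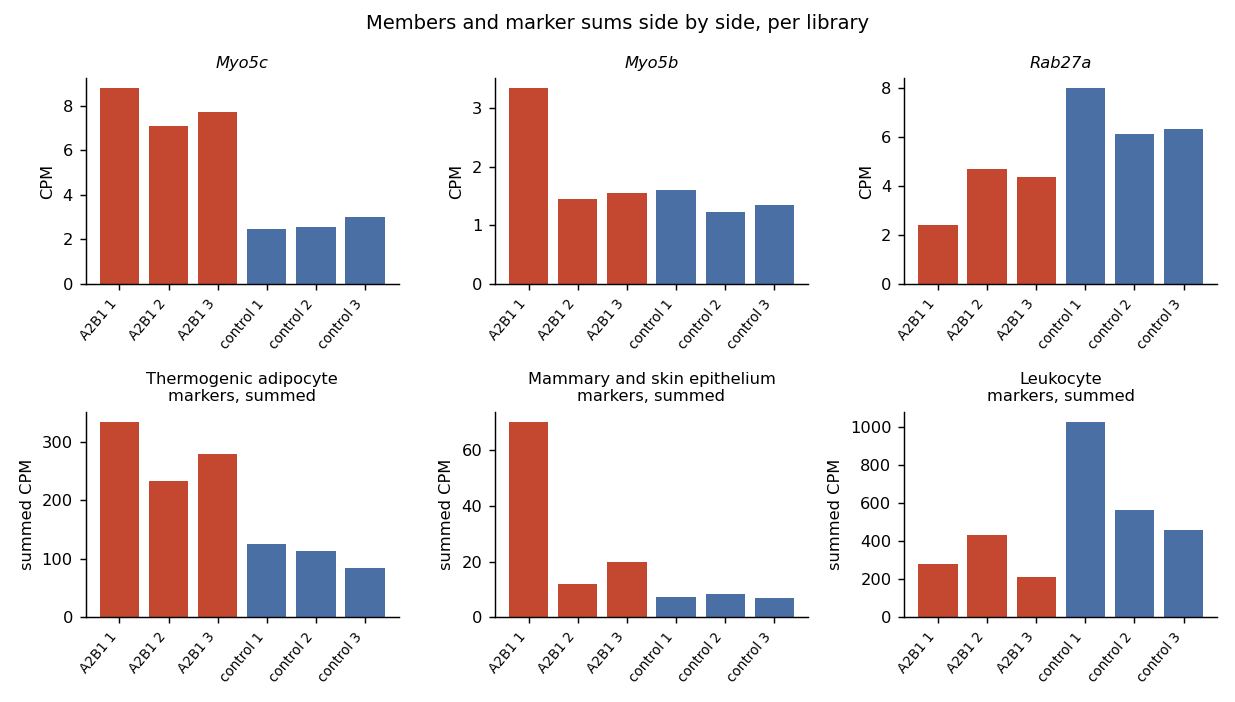
Myo5c, Myo5b and Rab27a in CPM (top row) above the summed CPM of a marker list (bottom row: thermogenic adipocyte, epithelium, leukocyte), per library, with A2B1 libraries in red to the left of the controls in blue. A2B1 library 1 is highest for both Myo5b (3.34 CPM) and the epithelium sum (70.1 CPM), and control library 1 is highest for both Rab27a (8.0 CPM) and the leukocyte sum (1030 CPM). The lowest Rab27a (2.4 CPM) is in A2B1 library 1 and the lowest leukocyte sum (210 CPM) in A2B1 library 3.

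The genes whose libraries varied most like each member were found by the root mean square difference of centred log2 CPM over the 6 libraries, where 0 means the same pattern. For Myo5c these were Gsta4, a glutathione transferase, at 0.204, Mamdc4 at 0.224, the beta-3 adrenergic receptor gene Adrb3 at 0.226, Spag8 at 0.23 and Meiob at 0.232. Gsta4 had 62.6, 47.4 and 55.6 CPM in A2B1 libraries and 19.8, 25.2 and 27.9 CPM in controls. Exons of Mamdc4 overlap Phpt1 on the same strand and those of Adrb3 overlap Gm45470 on the other, so both counts are uncertain. So are those of Tmem150a and Uvrag below, whose exons also overlap another gene. Exons of Tgfb3, Myl4, Npff and Pacsin3 overlap only gene models with few counts, 12 to 147 each in all libraries together. For Myo5a the nearest were Mfsd7a at 0.0504, Tgfb3 at 0.0553 and the integrin subunit gene Itgb5 at 0.0587. Those of Myo5b were Rhou at 0.0958, Tmem150a at 0.105 and Gldc at 0.111, and all 3 were highest in A2B1 library 1, as was Myo5b. Rab27a was nearest to Tmem229b (0.065), Uvrag (0.0921) and Eya2 (0.122), and Rab27b to Sgcd (0.15), Myl4 (0.159) and Tcaf1 (0.179). Mlph was nearest to Npff (0.0804), Vegfb (0.0816) and Pacsin3 (0.082), and Rab11fip2 to Rhobtb3 (0.0331), Kdm4c (0.0366) and Bbs2 (0.0373). Between members, Myo5a and Rab27b differed by 0.29, Mlph and Rab11fip2 by 0.225 and Myo5a and Myo5c by 1.15. Many other tested genes were nearer: 1441 to Myo5a than Rab27b was, and 196 to Rab27b than Myo5a was. For Mlph and Rab11fip2 these counts were 1143 and 5953, and for Myo5a and Myo5c 18001 and 15803. These distances share the group difference and the 6 libraries and carry no test.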

How the data were processed

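Trizol RNA of frozen inguinal fat went into Illumina TruSeq libraries, per the labels' protocols. Raw counts per gene stand in the 1 table the authors deposited, per the file headers, and 0 of its value columns belonged to other samples. The submitters' processing notes name Bowtie and mm10, with no version or role; the counter, annotation and strand setting: not given in the sources used here. Counts of 1, 2, 3 and 4 occur 8211, 6699, 7257 and 3493 times, an uneven run, so the numbers may be rounded estimates; they were treated as raw counts. No pair of libraries was a copy: the nearest, control 2 and control 3, differed by 63.3 times the counting noise (chi-square per gene).

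Counts were analysed in R 4.3.3. Of 31438 genes with any count, 19146 passed edgeR's filterByExpr (at least 10 counts in enough libraries, 15 in total) and hold at least 99.9% of each library's counts. EdgeR 4.0.16 with its quasi-likelihood F test (TMM, robust, group as only term, two-sided) was used on the whole table with Benjamini-Hochberg adjustment over it, and an adjusted p under 0.05 was called. For the SE the log2 fold change was divided by the root of F; the 95% interval uses its t distribution. The biological coefficient of variation was 33.6%. CPM use TMM-scaled totals, and log2 CPM for pattern distances a prior count of 2. Gene positions and exon lengths are from GENCODE M21 on mm10, joined by gene ID, and symbols repeated under a further ID (91) were resolved to the ID with most counts. DESeq2 1.42.0 (on all genes with a count), limma-voom with quality weights (limma 3.58.1), other scalings and filters, and each library left out in turn were alternatives. The edgeR script was tested on simulated counts.

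Named were the 7 members; up to 3 called genes of each of 15 lists, or else the 2 with the smallest p; the 5 genes nearest to Myo5c in pattern and the 3 nearest to each other member, leaving out placeholder symbols; and called or nearest neighbours within 500 kb. Chm, Myo1a, Myo1f, Myo1g, Epcam, Dct, Mitf, Sox10, Pmel, Plin5, Plin1, Ucp1, Elovl3, Dio2, Pygo1, 4933433G15Rik and markers with counts in at most 1 library were added once values had been seen. The members and lists were chosen with earlier results of these data known. Alternative splicing was not analysed here.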

Additional observations from a re-analysis of the deposited data

How the results depend on the processing

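No paired analysis was possible because the labels give the 2 groups no shared replicate numbers. All 13 alternatives kept the direction of Myo5a, Myo5b, Myo5c, Rab27a and Rab11fip2, and the 12 in which Rab27b was tested kept its direction. Mlph, at -0.02, reversed without A2B1 library 1 (0.0074), A2B1 library 2 (0.052) and control library 3 (0.21). Leaving out 1 library moved the log2 fold change of Mlph between -0.22 and 0.21, and left 10 to 57 genes called in place of 349. In those fits 0 members were called in place of 1. That 1 was Myo5c, which chose the group, so its calls here and below are a description. DESeq2 called 2552 genes and 3 members (Myo5a, Myo5c and Rab27a). The CPM filter (at least 1 CPM in 3 libraries) and limma-voom each called 2 members, Myo5a and Myo5c; Myo5a stood at -0.73 (adjusted p = 0.0429) with that filter, -0.75 (0.0409) in limma-voom and -0.73 (0.000611) in DESeq2, and Rab27a at -0.84 (0.0383) in DESeq2. Fewer libraries were fitted in the first case; for the other changes the cause was not tested. Of 195 list medians recomputed, 4 changed sign, and of 195 list counts of calls 152 stayed within 1.5 times. Depth limits Rab27b most, with 47 to 144 counts a library.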
